A study of Arabidopsis thaliana with 18 samples.

Results

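The 8 Arabidopsis thaliana genes AT3G23170, AT3G27220, AT4G24110, AT1G19530, AT1G74940, AT5G26200, AT3G10020 and AT1G26270 are genes that rosettes raise when oxygen is low. They were chosen by 2 measured values of these same arrays, namely a rise under hypoxia and a small difference between HA-RAP2.12 and wild type rosettes in air. No limit was stated for a small difference. Each gene had 1 probe set that names it alone (257925_at, 257153_at, 254200_at, 260668_at, 262170_at, 246854_at, 258939_at and 245821_at, in the order above), and the 8 stand among 13286 genes with a probe set of their own. Hypoxia against air in each genotype, HA-RAP2.12 against wild type in air, and the differences between responses built from them are therefore described here without a test. The 4 comparisons that were tested are HA-RAP2.12 against wild type under hypoxia, amiRAP2.2-12 against wild type under hypoxia and in air, and HA-RAP2.12 against amiRAP2.2-12 under hypoxia.

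Arabidopsis responds to low oxygen largely through the group VII ethylene response factors, to which RAP2.12 and RAP2.2 belong. In air, plant cysteine oxidases oxidise the cysteine at the start of these proteins, which marks them for breakdown by the N-degron pathway. When oxygen falls the factors last longer and switch on genes for fermentation and sugar breakdown, together with many genes whose work is not settled. Among the 8 genes, AT5G26200 belongs to the mitochondrial carrier family, whose proteins move metabolites across the inner mitochondrial membrane. AT1G26270 belongs to the gamma type of the phosphatidylinositol 4-kinase family, AT1G74940 encodes a protein with an FCS-like zinc finger, and AT3G27220 encodes a protein with kelch repeats. No role is given here for the other 4.

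Transcript levels were measured in whole rosettes of 5-week-old Columbia 0 plants grown with 8 h of light, on 1-colour Affymetrix arrays with 1 array per sample. The 3 genotypes were wild type, 35S::HA::RAP2.12 (HA-RAP2.12), in which the broadly active 35S promoter drives RAP2.12 behind an HA tag, and 35S::amiRAP2.2-12 (amiRAP2.2-12), in which it drives an artificial microRNA. All plants were kept in darkness at 22 °C for 1.5 h, either at 21% oxygen (air) or at 1% oxygen (hypoxia), which makes 6 groups of 3 arrays. The labels do not say how many independent lines were used or whether replicates were separate plants, so p-values measure only the spread between these samples. Probe sets of the 13 listed genes for the factors themselves and for the N-degron pathway are not analysed here, since no probe set names one of them alone. The effect of either construct on its target was therefore not measured.

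The values are log2 levels from GCRMA, a method that removes background and puts the arrays on a common scale, and the lowest value on any array was 2.11. Array medians lay between 5.59 and 5.81. On the second principal component amiRAP2.2-12 hypoxia replicate 2 stood apart at -58.8, whereas the other 17 arrays lay between -22.0 and 26.8, and limma gave it the lowest array weight (0.128, against 0.446 to 2.67 for the others). The 4 measured of 12 rosette marker genes averaged 12.14 to 12.29 on the wild type hypoxia arrays and 12.71 to 13.08 on the others, none of them at the floor. Most of this gap came from LHCB4.3, whose hypoxia level in HA-RAP2.12 exceeded that of wild type by 2.33 (SE 0.20). For amiRAP2.2-12 the excess was 1.88 (SE 0.20). SBPASE was higher by 0.34 and 0.28 (SE 0.05 each), whereas RCA (0.06 and 0.12, SE 0.04) and PRK (-0.02 and 0.12, SE 0.11) were not called. The part of these markers in the hypoxia results below was not tested. Of 5 root markers measured of 7, 4 lay under log2 2.5, taken here as the floor, in every group. The fifth, the root gene PYK10, was above the floor on all arrays and is given below where it moved.

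The label "barely primed in air" held for some of the 8 genes and not for others. The arrays agreed closely for AT3G27220, which stood at 4.16, 3.76 and 4.10 on the wild type air arrays and at 5.12, 5.11 and 5.16 on those of HA-RAP2.12, a difference of 1.12 (SE 0.31) or 2.18-fold. AT4G24110 differed by 1.37 (SE 0.51), and AT1G19530 by 1.04 (SE 1.03). These 3 genes thus stood at least 2-fold higher in HA-RAP2.12, with arrays that did not overlap between the groups, although the SE of AT1G19530 was as large as its difference. AT1G26270 was also higher without overlap, by only 0.26 (SE 0.24). AT3G23170 (0.04, SE 0.53), AT1G74940 (0.03, SE 0.19) and AT5G26200 (-0.16, SE 0.54) had overlapping arrays, and AT3G10020 was lower on every array, by -0.19 (SE 0.09). The sign for AT3G23170, AT1G74940 and AT5G26200 turned when 1 HA-RAP2.12 air array was left out (-0.06, -0.08 and 0.05), and for AT1G74940 also with array weights (-0.01). In all, 4 of 8 were higher without overlap, where 7.38% of all probe sets were, and 0 of 8 were called higher at an adjusted p under 0.05, where 0.171% were. This comparison chose the genes, so nothing is read from either count.

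Set on the scale of the wild type response, the difference in HA-RAP2.12 air amounted to 26.7% of the log2 rise of AT1G19530 in wild type, 26.6% for AT1G26270, 25.1% for AT4G24110 and 16.4% for AT3G27220. It amounted to 1.48% for AT1G74940 and 0.623% for AT3G23170. For AT5G26200 (-3.32%) and AT3G10020 (-27.9%) it ran the other way.

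In wild type, hypoxia raised the 8 genes by very different amounts. AT3G27220 rose from a mean of 4.01 ± 0.22 (SD, n = 3) to 10.85 ± 0.03 (n = 3), a change of 6.84 (SE 0.31) or 115-fold. AT3G23170 rose by 6.67 (SE 0.53), AT4G24110 by 5.46 (SE 0.51), AT5G26200 by 4.68 (SE 0.54) and AT1G19530 by 3.91 (SE 1.03). The other 3 moved less. AT1G74940 rose by 1.92 (SE 0.19), AT1G26270 by 0.98 (SE 0.24) and AT3G10020 by 0.69 (SE 0.09), the last from 12.94 ± 0.12 to 13.63 ± 0.01 (n = 3 each). All 8 were called higher, against 11.5% of all probe sets, as their choice required.

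In both transgenic lines all 8 genes had a higher mean under hypoxia than in air, and each difference was smaller than in wild type. In HA-RAP2.12 the changes ran from 0.53 (SE 0.09) for AT3G10020 to 5.19 (SE 0.53) for AT3G23170, with a median of 2.44 against 4.29 in wild type. In amiRAP2.2-12 they ran from 0.25 (SE 0.24) for AT1G26270 to 5.63 (SE 0.31) for AT3G27220, with a median of 1.87. The arrays of air and hypoxia did not overlap for any gene in wild type or HA-RAP2.12. In amiRAP2.2-12 they overlapped for AT1G19530 and AT1G26270, and without hypoxia replicate 1 these 2 genes were lower under hypoxia than in air (-0.16 and -0.13). The response of HA-RAP2.12 minus that of wild type was below 0 for all 8 genes, from -1.91 (SE 1.45) for AT1G19530 to -0.17 (SE 0.12) for AT3G10020. That of amiRAP2.2-12 minus wild type was likewise below 0 for all 8, from -2.80 (SE 1.45) for AT1G19530 to -0.05 (SE 0.12) for AT3G10020. The sign for AT3G10020 turned after quantile normalization (0.06), after median centring (0.03) and without amiRAP2.2-12 hypoxia replicate 2 (0.04). Both differences share the wild type arrays that helped to choose the genes. Over all 22746 probe sets the medians of these 5 quantities were 0.00.

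**Figure D1:**
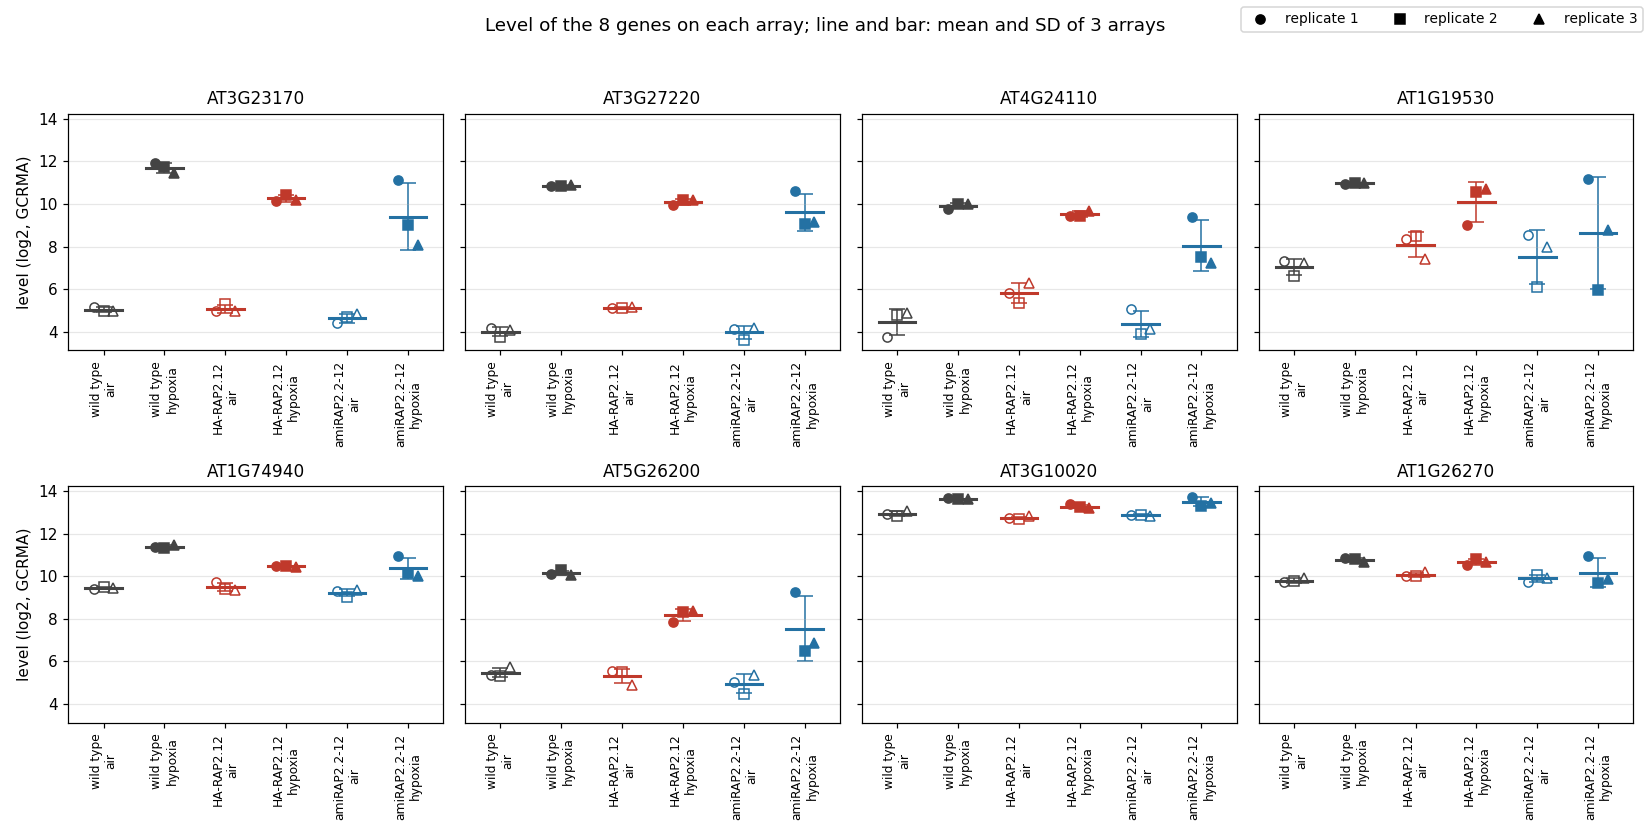
Log2 level (y axis) of each of the 8 genes on each array, by group (x axis); open symbols are air and filled symbols hypoxia, the symbol shape gives the replicate number, and lines and bars give the mean and SD of 3 arrays. Within each group, the wild type hypoxia arrays and the HA-RAP2.12 hypoxia arrays lie close together for most genes. The amiRAP2.2-12 hypoxia arrays spread widely, with replicate 1 the highest of them in every panel.

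The first tested question was whether HA-RAP2.12 rosettes reach the wild type level once oxygen is low. All 8 genes had a lower mean in HA-RAP2.12 under hypoxia, and 2 of 8 were called lower, where 2.58% of all probe sets were. The wild type hypoxia arrays of this comparison also helped to choose the genes as raised by hypoxia. That choice can favour a lower value in HA-RAP2.12, and the probe sets behind the share were not chosen so. The zinc finger gene AT1G74940 stood at 11.39, 11.32 and 11.46 on the wild type arrays and at 10.46, 10.47 and 10.45 on the HA-RAP2.12 arrays. The groups were well separated, with a difference of -0.93 (SE 0.19, 95% interval -1.33 to -0.52, adjusted p = 0.0145). In air the genotypes differed by 0.03 for this gene, and under hypoxia HA-RAP2.12 reached 51.9% of the wild type log2 rise.

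AT3G10020 was the second gene called lower in HA-RAP2.12 under hypoxia. It stood at 13.65, 13.63 and 13.62 in wild type and at 13.37, 13.24 and 13.20 in HA-RAP2.12. The difference was small, at -0.36 (SE 0.09, 95% interval -0.55 to -0.17, adjusted p = 0.0344), and the arrays did not overlap. It was the only gene of the 8 that was lower without overlap in HA-RAP2.12 at both oxygen levels. Its call was lost after quantile normalization (adjusted p = 0.0657) and without wild type air replicate 1 (0.0503), any wild type hypoxia array (0.0914 to 0.0974) or HA-RAP2.12 hypoxia replicate 2 (0.103) or 3 (0.141). That of AT1G74940 was lost without wild type hypoxia replicate 3 (0.0573) or HA-RAP2.12 hypoxia replicate 3 (0.0575).

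The mitochondrial carrier gene AT5G26200 had the largest difference among the 8, without being called. It stood at 10.11, 10.27 and 10.07 in wild type and at 7.87, 8.32 and 8.39 in HA-RAP2.12 with no overlap. The difference was -1.96 (SE 0.54, 95% interval -3.14 to -0.78, adjusted p = 0.0615). AT3G23170 stood at 11.94, 11.71 and 11.45 against 10.15, 10.43 and 10.19 (-1.44, SE 0.53, adjusted p = 0.170). The kelch repeat gene AT3G27220 stood at 10.86, 10.82 and 10.87 against 9.96, 10.16 and 10.16 (-0.76, SE 0.31, adjusted p = 0.233). For these 3 genes the groups compared did not overlap, and their SDs were at most 0.28, while the SE pools all 6 groups, with SDs of up to 1.57 in amiRAP2.2-12 under hypoxia. With only the 6 arrays compared in the fit, all 3 were called (adjusted p = 0.0162, 0.0253 and 0.0164) and the count was 5 of 8. Over all probe sets, calls in either direction made up 3.97% in that fit, against 4.67% with all arrays. The count was also 5 with array weights, where 17.3% of all probe sets were called, and without amiRAP2.2-12 hypoxia replicate 1, where 6.13% were. It was 3 after median centring (5.05%), with dim probe sets filtered out (10.0%) and without amiRAP2.2-12 hypoxia replicate 2 (7.28%). The gene added in each of these was AT5G26200 (adjusted p = 0.0421, 0.0227 and 0.028). The count was 0 without wild type hypoxia replicate 3 (2.24%) or HA-RAP2.12 hypoxia replicate 3 (1.81%).

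The remaining 3 genes were not called either. AT4G24110 differed by -0.39 (SE 0.51, 95% interval -1.50 to 0.72, adjusted p = 0.937), and AT1G26270 by -0.12 (SE 0.24, 95% interval -0.64 to 0.41, adjusted p = 1). AT1G19530 stood at 10.95, 10.97 and 10.96 in wild type and at 9.03, 10.56 and 10.69 in HA-RAP2.12, a difference of -0.87 (SE 1.03, 95% interval -3.09 to 1.36, adjusted p = 0.887). The intervals of AT4G24110 and AT1G19530 leave room for a fall by more than 2-fold, so a similar level in the 2 genotypes is not shown for them. On HA-RAP2.12 hypoxia replicate 1, where AT1G19530 was lowest, the root marker PYK10 was also low, at 5.10 against 8.10 and 7.37 on replicates 2 and 3. In wild type hypoxia PYK10 stood at 8.74, 8.68 and 8.55, above every hypoxia array of HA-RAP2.12 (-1.80, SE 0.91, adjusted p = 0.368) and of amiRAP2.2-12 (-2.38, SE 0.91, adjusted p = 0.274). Its part in the result was not tested. Across the 8 genes, 7 were lower in HA-RAP2.12 on all arrays without overlap, where 12.9% of all probe sets were. The 8 were chosen as raised on these wild type arrays and the probe sets behind that share were not, so nothing is read from this count. In bulk tissue, fewer cells that express a gene and less RNA per cell cannot be told apart.

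**Figure D2:**
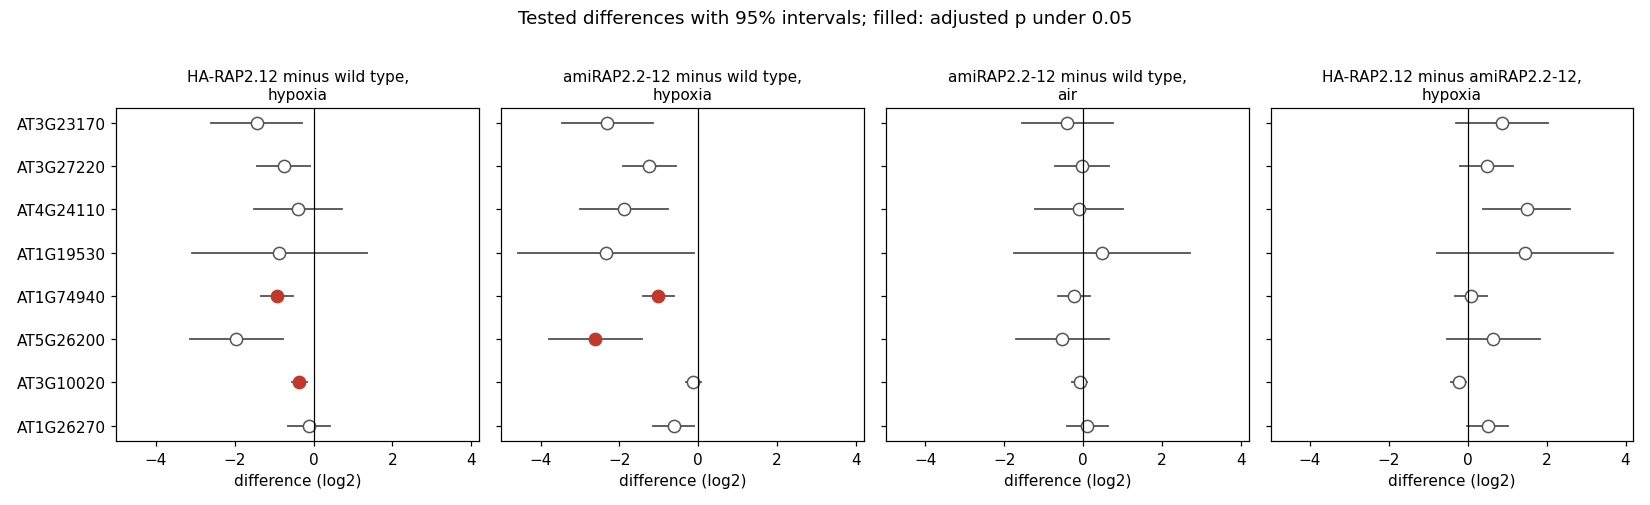
Log2 difference (x axis) of each of the 8 genes (y axis) in the 4 tested comparisons; lines are 95% intervals of the fit, not adjusted for the number of tests, and filled points have an adjusted p under 0.05. All points lie below 0 in the comparisons of the transgenic lines with wild type under hypoxia, and 2 of 8 are filled in each of them.

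The second tested question was how far amiRAP2.2-12 rosettes follow wild type under hypoxia. All 8 means were again lower, and 2 of 8 genes were called lower, where 0.813% of all probe sets were. AT5G26200 stood at 9.27, 6.47 and 6.89, against 10.07 to 10.27 in wild type. The difference was -2.61 (SE 0.54, 95% interval -3.79 to -1.43, adjusted p = 0.0362), or 6.10-fold lower. AT1G74940 stood at 10.94, 10.16 and 10.03, against 11.32 to 11.46 in wild type, a difference of -1.01 (SE 0.19, 95% interval -1.41 to -0.61, adjusted p = 0.0222). Both genes were below every wild type array, with replicate 1 nearest to wild type.

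Each of these calls was lost under several other settings. With only the arrays compared, neither gene was called (adjusted p = 0.571 for AT5G26200 and 0.494 for AT1G74940), and with the replicate number as a block AT5G26200 was not called (0.0616). AT1G74940 was not called without any one wild type hypoxia array (0.0586, 0.0590 and 0.0857) or without amiRAP2.2-12 hypoxia replicate 2 (0.0580) or 3 (0.0781). AT5G26200 was not called without any one of these 5 arrays (0.0867 to 0.141), without any one wild type air array (0.0558 to 0.0570), or without HA-RAP2.12 air replicate 2 (0.0554), HA-RAP2.12 hypoxia replicate 2 (0.0525) or 3 (0.0557). Without replicate 2, the array that stood apart, the differences were -2.07 for AT5G26200 and -0.90 for AT1G74940.

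The other 6 genes were lower by amounts that did not pass. AT1G19530 differed by -2.33 (SE 1.03, adjusted p = 0.376), AT3G23170 by -2.31 (SE 0.53, adjusted p = 0.0554), AT4G24110 by -1.88 (SE 0.51, adjusted p = 0.102) and AT3G27220 by -1.24 (SE 0.31, adjusted p = 0.0771). AT1G26270 differed by -0.62 (SE 0.24, adjusted p = 0.288) and AT3G10020 by -0.13 (SE 0.09, 95% interval -0.32 to 0.06, adjusted p = 0.611). In all, 5 of 8 genes were lower without overlap, where 6.59% of all probe sets were. Both comparisons with wild type under hypoxia share the wild type hypoxia arrays, on which the 8 genes had been picked as high.

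The 3 amiRAP2.2-12 hypoxia arrays did not respond alike. AT3G23170 stood at 11.12, 9.0 and 8.06, AT4G24110 at 9.40, 7.51 and 7.21, and AT3G27220 at 10.61, 9.07 and 9.16. Replicate 1 was the highest of the 3 arrays for all 8 genes, and it exceeded every wild type hypoxia array for AT1G19530 (11.17), AT3G10020 (13.73) and AT1G26270 (10.94). Averaged over the 8 genes it lay 0.28 below the wild type mean (-0.28), against -2.28 on replicate 2 and -1.99 on replicate 3. The array that stood apart on the second principal component was thus not the only low one.

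The 8 genes did not fall evenly on the low arrays. On replicate 2, AT1G19530 was at 5.94, lower than any wild type air array (6.61 to 7.31), and so showed no rise at all there, while AT3G23170 was at 9.0, far above its wild type air level of 5.03. On replicate 3, AT1G19530 was at 8.79 and AT3G23170, at 8.06, had its lowest hypoxia value. AT1G26270, at 9.67 and 9.89 on replicates 2 and 3, was within its range in amiRAP2.2-12 air (9.75 to 10.07) or below it. The root marker PYK10 stood at 8.21, 3.85 and 6.76 on the 3 arrays, and the mean of the 5 measured root markers ranged from 2.47 to 3.35. The part of root content in the result was not tested.

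Leaving out replicate 1 gave the most calls of any single array left out. AT3G23170 then differed from wild type by -3.17 (adjusted p = 3.95e-05), AT1G19530 by -3.59 (adjusted p = 0.0373) and AT1G26270 by -1.0 (adjusted p = 0.000662), and 7 of 8 genes were called lower. Calls over all probe sets, in either direction, rose with them from 1.42% to 4.49%. Leaving out replicate 2 or replicate 3 gave 0 of 8. The group means of amiRAP2.2-12 under hypoxia are therefore means over arrays that differ by more than the difference from wild type for several genes, with SDs of 0.21 to 2.62 (n = 3) against 0.01 to 0.24 in wild type.

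**Figure D3:**
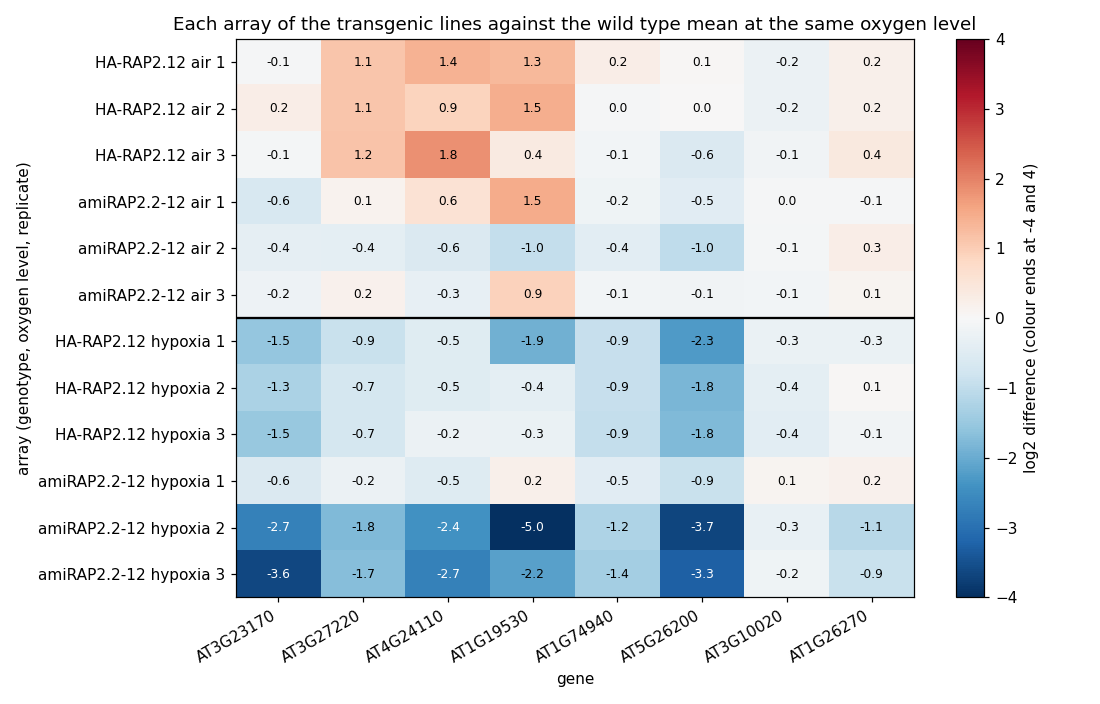
Log2 difference of each array of the transgenic lines (y axis) from the wild type mean at the same oxygen level, for each of the 8 genes (x axis), as numbers and as colour from blue (lower) to red (higher). Above the black line the HA-RAP2.12 air arrays run from -0.56 to 1.82. Below the line the 3 HA-RAP2.12 arrays resemble each other except for AT1G19530, where replicate 1 is the lowest. There amiRAP2.2-12 replicates 2 and 3 are lower than replicate 1 for every gene, by least for AT3G10020.

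In air the amiRAP2.2-12 rosettes held the 8 genes at levels that were not called different from wild type. None of the 8 passed by limma's adjusted p, where 0.0132% of all probe sets did. None had an unadjusted p under 0.05 either, where 1768 of all 22746 probe sets had one. On every array AT3G23170 (4.39, 4.67 and 4.82) and AT1G74940 (9.30, 9.04 and 9.36) were nevertheless lower than in wild type, so 2 of 8 were lower without overlap, where 6.11% of all probe sets were. The wild type air arrays of this comparison also helped to choose the 8 genes, and the probe sets behind these shares were not chosen so. The differences ran from -0.53 (SE 0.54, 95% interval -1.71 to 0.65) for AT5G26200 to 0.48 (SE 1.03, 95% interval -1.75 to 2.70) for AT1G19530. The narrowest intervals were those of AT3G10020 (-0.08, 95% interval -0.27 to 0.11) and AT1G74940 (-0.23, 95% interval -0.63 to 0.17). AT1G19530 was again the most variable, at 8.52, 6.09 and 7.96, where the wild type arrays lay between 6.61 and 7.31. For it, differences of over 2-fold in either direction lie within the interval.

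Between the transgenic lines under hypoxia, none of the 8 genes was called, where 1.01% of all probe sets were. An unadjusted p under 0.05 was found for 2 of 8, where 2433 of all 22746 probe sets had one. HA-RAP2.12 had the higher mean for 7 of 8. The largest difference was 1.49 (SE 0.51, 95% interval 0.38 to 2.60, adjusted p = 0.258) for AT4G24110, whose HA-RAP2.12 arrays (9.45, 9.45 and 9.69) were above all 3 amiRAP2.2-12 arrays. AT3G10020 was the exception, at -0.23 (SE 0.09, adjusted p = 0.318). Without amiRAP2.2-12 hypoxia replicate 1, 5 of 8 were called, all higher in HA-RAP2.12, with AT3G23170 at 1.73 (adjusted p = 0.00615), while 1.35% of all probe sets were called. AT1G74940 was at 10.46 ± 0.01 and 10.38 ± 0.49 (n = 3 each), a difference of 0.08 with a 95% interval of -0.32 to 0.49.

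The order of the group means under hypoxia was the same for 7 of the 8 genes: wild type, then HA-RAP2.12, then amiRAP2.2-12. For AT3G10020 the transgenic lines changed places. HA-RAP2.12 and amiRAP2.2-12 were not called different for any gene, so the order between them does not stand beyond the spread. Of the 7 genes, AT1G74940 alone was called lower in HA-RAP2.12 than in wild type. For the others the step from wild type to HA-RAP2.12 was not called either. In air the order varied from gene to gene.

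The 8 genes belong to a list of 48 loci known to be raised by low oxygen in Arabidopsis, of which 25 had a probe set of their own. Of the 17 listed genes other than these 8, 16 were called higher in wild type under hypoxia and 0 lower, with a median change of 4.04. In HA-RAP2.12 air 7 of these 17 were called higher and 0 lower, with a median difference of 0.56 against 0.15 for the 8 genes, a gap that follows from how the 8 were chosen. Under hypoxia the median of HA-RAP2.12 minus wild type was -0.48 for the 17 and -0.81 for the 8, and that of amiRAP2.2-12 minus wild type was -1.30 and -1.56. The medians over all probe sets were 0.00. The 8, unlike the 17, were chosen partly for a small difference in HA-RAP2.12 air. That choice can also shape the gaps between the 8 and the 17 under hypoxia, so nothing is read from them. Among the 17, AT5G45960 had group means of 2.11 to 2.13, at or near the lowest value on any array. A fall could therefore hardly be seen for it.

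Of the 17 other listed genes, 2 were called lower in HA-RAP2.12 under hypoxia. These were PDC2, a pyruvate decarboxylase of the fermentation pathway (-1.28, SE 0.30, adjusted p = 0.0295), and AT2G15880 (-1.26, SE 0.28, adjusted p = 0.0253). Both calls were lost without any one wild type hypoxia array or HA-RAP2.12 hypoxia replicate 2 or 3, and that of PDC2 also without replicate 1 (adjusted p = 0.0569 to 0.117 in all). With only the arrays compared, AT2G15880 was not called (0.0896). In amiRAP2.2-12 under hypoxia 1 of 17, PDC2, was lower (-1.49, SE 0.30, adjusted p = 0.0318), a call lost with only the arrays compared (0.551), without wild type air replicate 2 (0.0502), any one wild type hypoxia array, or amiRAP2.2-12 hypoxia replicate 2 or 3 (0.0757 to 0.122). Between the lines, AT3G03270, a universal stress protein gene, was higher in HA-RAP2.12 (1.82, SE 0.34, adjusted p = 0.0252), a call lost with only the arrays compared (0.610), without any one HA-RAP2.12 hypoxia array or without amiRAP2.2-12 hypoxia replicate 3 (0.0534 to 0.109). None of the 17 was called in amiRAP2.2-12 in air.

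Genes of the list fell in different places when air and hypoxia were set side by side for HA-RAP2.12. AT3G03270 was 2.71 (SE 0.34) above wild type in air and 0.43 (SE 0.34) above it under hypoxia. AT5G26200 differed by -0.16 in air and -1.96 under hypoxia, and AT3G23170 by 0.04 and -1.44. PDC2 (-0.75 and -1.28) and AT2G15880 (-0.91 and -1.26), neither of them among the 8, were below wild type at both oxygen levels. Among the 8 genes the differences in air ran from -0.19 to 1.37 and those under hypoxia from -0.12 to -1.96.

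**Figure D4:**
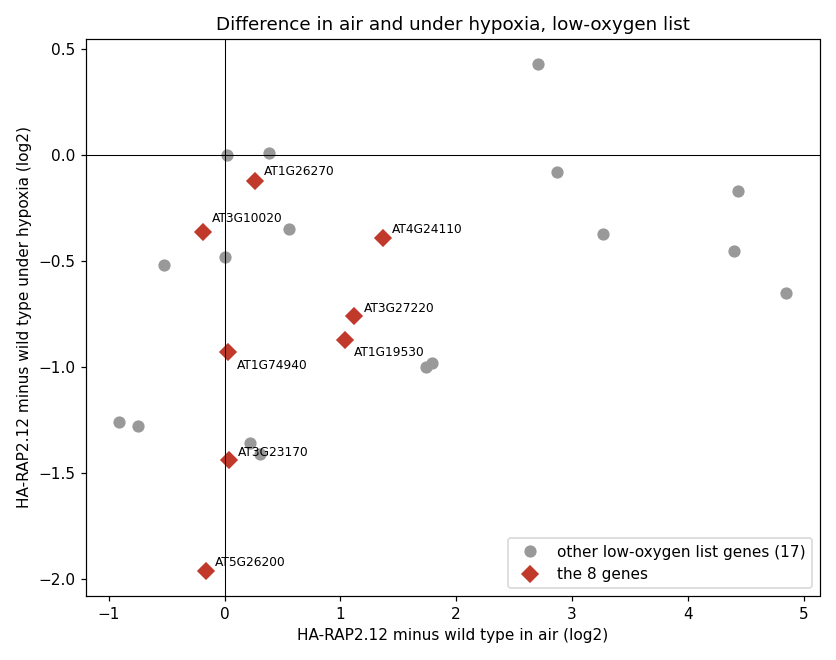
Log2 difference between HA-RAP2.12 and wild type in air (x axis) and under hypoxia (y axis) for the 8 genes (red diamonds, named) and the 17 other measured genes of the low-oxygen list (grey circles). The 8 genes lie between -0.19 and 1.37 on the x axis, as they were chosen to, and all lie below 0 on the y axis.

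AT1G26270 has relatives on the array. Of the 8 genes of the gamma type of phosphatidylinositol 4-kinase, 5 had a probe set of their own. AT1G64460 stood at 5.00, 4.84 and 5.16 in wild type air and at 6.29, 6.43 and 6.29 under hypoxia, a rise of 1.34 (SE 0.12, adjusted p = 4.57e-06). Under hypoxia it was at 5.78, 5.67 and 5.98 in HA-RAP2.12 (-0.53, SE 0.12, adjusted p = 0.0245) and at 5.68, 5.43 and 5.34 in amiRAP2.2-12 (-0.86, SE 0.12, adjusted p = 0.00497). Its arrays did not overlap with wild type in either line, and the HA-RAP2.12 call was lost without any one wild type hypoxia array or HA-RAP2.12 hypoxia replicate 1 or 2 (0.0564 to 0.0947). With only the arrays compared, neither was called (0.0741 and 0.183). AT5G24240 was at 5.21, 4.05 and 5.27 under hypoxia in wild type and at 2.11, the lowest value on any array, on the other 15 arrays. Under hypoxia it was called lower in HA-RAP2.12 (-2.74, SE 0.23, adjusted p = 0.000164) and in amiRAP2.2-12 (-2.74, SE 0.23, adjusted p = 0.000219). The amiRAP2.2-12 call was lost with only the arrays compared (0.214). As 15 arrays share 1 value, the SE rests on the wild type hypoxia arrays alone. AT1G13640 stayed between 6.94 and 7.63 on all arrays, and AT3G56600 was at 2.11 on all of them. For AT1G26270 itself, the corresponding hypoxic differences were -0.12 and -0.62, neither called.

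The mean profile of the 8 genes over the 18 arrays was matched against 13278 other genes by the mean absolute difference between profiles, each centred on its own mean. The nearest was Fes1A, a co-chaperone gene, at a distance of 0.27 log2 units, where the median over all genes compared was 1.50. Its level rose by 4.17 under hypoxia in wild type, by 2.49 in HA-RAP2.12 and by 2.61 in amiRAP2.2-12, and its difference between HA-RAP2.12 and wild type in air was 0.41. The next were AT1G67360 (0.33), AT1G48100 (0.36), AT2G20560 and AT3G28480 (0.37 each), AT1G78070 and AT3G14200 (0.41 each), AT3G04000 and AT1G04770 (0.43 each) and AT1G28760 (0.44). None of these 10 was on the low-oxygen list. Their profiles resemble that of the 8 genes by choice, so their own differences between groups are no further result. The 8 genes themselves lay between 0.39 (AT5G26200) and 1.41 (AT3G27220) from their own mean profile.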

How the data were processed

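The authors deposited 1 table of log2 values, 1 per probe set and array, for which the submitters' processing notes name GCRMA without a version. Of 22810 probe sets, 64 controls were left out and 22746 were tested. GEO's platform annotation named 1 gene for 13513 of them, and 13436 of these took a current symbol from a TAIR10.1 gene table. No sequence, promoter or genome was used here.

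Group means of all 18 arrays were fitted with limma 3.58.1 in R 4.3.3 (lmFit and eBayes, default prior), using two-sided tests, and p-values were adjusted by Benjamini-Hochberg across the 22746 probe sets, with calls made under 0.05. The fit was first tested on simulated data. Errors are the SE of the fit or the SD of 3 arrays. Precision is limited by how few arrays each group has. Figures used Python 3.11.15 and matplotlib 3.10.9.

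The members, lists, tests and naming rule were chosen with earlier results of these data known. Named were the 8 genes, up to 4 other listed genes called per tested comparison, all measured phosphatidylinositol 4-kinase gamma genes and the 10 nearest profiles. A gene's probe set was the one with the highest mean among those naming it alone. Alternatives were quantile normalization, median centring, a filter (above log2 4 on at least 3 arrays), eBayes with trend and robust options, arrayWeights, a fit to only the arrays compared, a block for the replicate number, and leaving out each array.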

Additional observations from a re-analysis of the deposited data

How the results depend on the processing

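For the 8 genes, the count called lower in HA-RAP2.12 under hypoxia was 2, and it was 1 after quantile normalization, 5 with array weights, 5 with only the arrays compared and 0 to 5 when single arrays were left out. Calls over all probe sets, in either direction, went from 4.67% to 4.92%, 17.3% and 3.97% under the first 3 of these. The count was 3 after median centring (5.05% of all probe sets) and with dim probe sets filtered out (10.0%). In amiRAP2.2-12 under hypoxia the count of 2 became 5 once dim probe sets were filtered out, 6 with array weights, 0 with only the arrays compared, 1 with a block for the replicate number and 0 to 7 with single arrays left out. Over all probe sets the share went from 1.42% to 3.77%, 10.6%, 0.044% and 0.989% under the first 4. After median centring the count was 3, with 1.56% of all probe sets called. Between the lines under hypoxia the count of 0 became 4 with array weights, where the share over all probe sets went from 1.01% to 8.02%, and 0 to 5 with single arrays left out. The cause of these changes was not tested. With only the arrays compared, or with single arrays left out, both the number of arrays behind the estimate of spread and their choice changed. In air, amiRAP2.2-12 gave 0 under every alternative. The replicate numbers showed no clear sign of pairing. Deviations of same-numbered arrays correlated above 0.1 in 8 of 45 array pairs (median r 0.019), and the median r of other-numbered arrays was 0.006. With 3 arrays per group, this cannot show that the samples were unpaired. With the block, AT5G26200 lost its call in amiRAP2.2-12 (adjusted p = 0.0616), as did PDC2 in both lines (0.0548 and 0.0630).

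Across all comparisons of the named genes, 10 differences changed sign under some alternative. The 6 in comparisons that were described without a test are given with their values above. The 4 in tested comparisons, none of them called, changed when 1 array was left out. In air, amiRAP2.2-12 minus wild type ranged from -0.15 to 0.15 for AT3G27220, from -0.47 to 0.13 for AT4G24110 and from -0.02 to 1.19 for AT1G19530. Under hypoxia, HA-RAP2.12 minus amiRAP2.2-12 ranged from -0.09 to 0.37 for AT1G74940. Signals near the floor limit what could be measured for AT5G24240.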
